A study of Rattus norvegicus with 3 samples.

Results

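The Arg1 macrophages of diabetic rat skin wounds are macrophages that carried transcripts of Arg1, which encodes arginase 1, the enzyme that cleaves arginine to ornithine and urea. They were chosen by their own counts. A cell entered if it had a UMI (unique molecular identifier, 1 counted RNA molecule) of at least 3 of the 8 macrophage genes Cd68, Csf1r, C1qa, C1qb, C1qc, Ms4a7, Mrc1 and Cd14, at least 2 Arg1 UMIs, and no UMI of Cd163 (tissue-resident macrophages), Fcnb (monocytes), Pdgfra (fibroblasts) or Cdh5 (endothelium). Of 41236 kept cells in all, 2218 met the rule: 216 in the CO hydrogel library, 1356 in the hydrogel library and 646 in the untreated library. The genes of the rule are therefore a description of these cells and not a finding, and Spp1, Ereg, Csf3 and Thbs1, the other genes that mark them, were picked from earlier results of the same data.

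All 3 groups were wild type male rats of the strain SD, 8 to 10 weeks of age per the series description, made diabetic with 65 mg/kg of streptozotocin, which kills the insulin-producing cells of the pancreas, with blood glucose over 16.7 mM. Each received full-thickness skin defects of 15 mm in diameter. The groups were wounds under a CO-releasing hyaluronic acid hydrogel (CO standing for carbon monoxide), wounds under a hyaluronic acid hydrogel, and untreated wounds. The labels give 7 days of treatment and do not say how many animals stand behind a library. Wound skin was dissociated with an enzyme kit made for epidermis and red cells were lysed, and 1 library of 10x Genomics 3′ single-cell RNA was made for each group. As each group is a single library, nothing was tested between groups and p-values are not given, and a difference between wounds cannot be told apart from one between libraries or animals.

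Macrophages of early wounds come largely from blood monocytes and pass from an inflammatory phase to one of clearance and repair. Arginase 1 competes for arginine with inducible nitric oxide synthase (Nos2) and feeds the synthesis of polyamines and proline, and it is a textbook mark of alternatively activated and of wound macrophages in mice. Osteopontin (Spp1) is a matrix and adhesion protein of activated macrophages, epiregulin (Ereg) a ligand of the EGF receptor, granulocyte colony-stimulating factor (Csf3) the cytokine that drives neutrophil production, and thrombospondin 1 (Thbs1) a matrix glycoprotein that restrains vessel growth.

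The libraries held 109718517 UMIs in 15376 barcodes (CO hydrogel), 109148721 UMIs in 15442 barcodes (hydrogel) and 78233883 UMIs in 12883 barcodes (untreated). Kept cells had medians of 5820 UMIs (CO hydrogel), 5623 UMIs (hydrogel) and 2655 UMIs (untreated). Since the rule asks for 2 Arg1 UMIs, it favours deeply read cells: members had medians of 9076 UMIs in the CO hydrogel library, 10009 in the hydrogel library and 9352 in the untreated library, against 4770 (CO hydrogel), 7036 (hydrogel) and 5299 (untreated) in the other macrophages of the same gate, that is, cells with at least 3 gate genes, none of the 4 excluded genes and fewer than 2 Arg1 UMIs. Barcode sequences found in more than 1 library made up 14 (CO hydrogel), 56 (hydrogel) and 18 (untreated) of the members.

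The members were scored on markers of 8 cell classes, of which the macrophage markers were the 8 gate genes of the rule. A leading macrophage score thus follows in large part from the rule and is no independent check of the label. Of the members, 153 in the CO hydrogel library, 1062 in the hydrogel library and 488 in the untreated library scored highest as macrophages, and 18 (CO hydrogel), 219 (hydrogel) and 94 (untreated) had no leading class. The others led with fibroblast markers (28 in CO hydrogel, 22 in hydrogel and 9 in untreated), keratinocyte markers (17 in CO hydrogel, 10 in hydrogel and 10 in untreated), neutrophil markers (0 in CO hydrogel, 27 in hydrogel and 39 in untreated) or, in 22 cells of the hydrogel and untreated libraries, mural, T or NK, or mast cell markers. These cells held 41.8% of all member UMIs in the CO hydrogel library, 8.64% in the hydrogel library and 16.6% in the untreated library. Summed keratinocyte marker levels over all members were 8242 counts per 1000000 UMIs (CPM) in the CO hydrogel library, 772 CPM in the hydrogel library and 2436 CPM in the untreated library. They were 51.0 CPM (CO hydrogel), 32.9 CPM (hydrogel) and 39.3 CPM (untreated) once those cells were left out, below the 90.5 CPM (CO hydrogel), 58.5 CPM (hydrogel) and 51.0 CPM (untreated) of the other macrophages treated the same way. Summed fibroblast marker levels were 7991 CPM (CO hydrogel), 1416 CPM (hydrogel) and 1877 CPM (untreated) over all members and 1111 CPM (CO hydrogel), 541 CPM (hydrogel) and 519 CPM (untreated) without those cells. Some members thus led with markers of another class. The gene results below are given for the members that led with macrophage markers or with no class, called the core. These were 171 cells in the CO hydrogel library, 1281 in the hydrogel library and 582 in the untreated library. They were set against 1437 (CO hydrogel), 1792 (hydrogel) and 619 (untreated) core cells among the other macrophages. This restriction was chosen after the values were seen. Gene lists are described in the core unless all members are named.

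The CO hydrogel wound held the smallest share of Arg1 macrophages. They were 1.45% of kept cells in the CO hydrogel library (exact 95% interval 1.26 to 1.65), 9.45% of the hydrogel library (8.98 to 9.94) and 5.40% of the untreated library (5.0 to 5.82). All intervals here cover counting error only. Among cells with at least 3 gate genes, Arg1 macrophages made up 216 of 4711 in the CO hydrogel library (4.59%), 1356 of 5649 in the hydrogel library (24.0%) and 646 of 2517 in the untreated library (25.7%). The order of hydrogel and untreated therefore turned with the denominator, while the CO hydrogel library was lowest with each.

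Depth bears on these shares, and it differed between libraries and cell classes. Kept untreated cells had the lowest median, but 53.3% of them were of the neutrophil class, with a median of 2019 UMIs. In the macrophage class the CO hydrogel library was the shallowest, with medians of 5297 UMIs (CO hydrogel), 8289 UMIs (hydrogel) and 8047 UMIs (untreated). With every cell thinned to 1000 UMIs and shallower cells left out (1308 in the CO hydrogel library, 997 in the hydrogel library and 610 in the untreated library), Arg1 macrophages were 0.176% of cells in the CO hydrogel library (0.113 to 0.262), 0.966% of the hydrogel library (0.807 to 1.15) and 1.18% of the untreated library (0.990 to 1.40). At 2000 UMIs they were 0.460% in the CO hydrogel library, 3.84% in the hydrogel library and 3.63% in the untreated library. Among thinned cells with 3 gate genes the shares at 2000 UMIs were 1.78% (CO hydrogel), 11.6% (hydrogel) and 18.3% (untreated). At both depths the CO hydrogel wound stood several times below the other wounds, and hydrogel and untreated lay close to each other as a share of all cells.

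**Figure D1:**
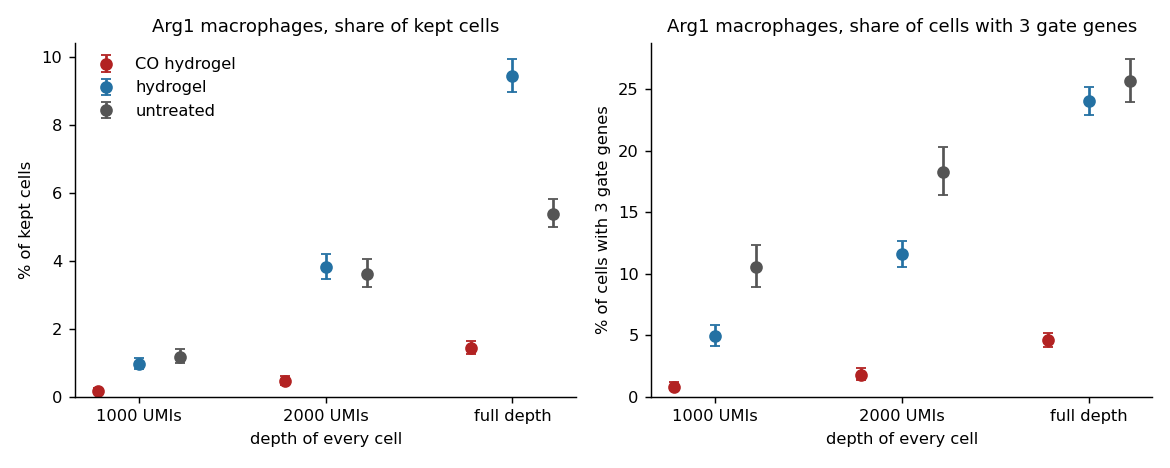
Share of Arg1 macrophages in percent of kept cells and of cells with at least 3 gate genes, per library, at 1000 UMIs per cell, 2000 UMIs per cell and full depth, with exact 95% intervals for counting error. The CO hydrogel points are lowest at every depth, at 1.45% of kept cells at full depth, while the order of the hydrogel and untreated points depends on denominator and depth.

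The threshold itself cut through a graded distribution. Exactly 2 Arg1 UMIs were found in 75 members of the CO hydrogel library (34.7%), 288 of the hydrogel library (21.2%) and 88 of the untreated library (13.6%). Just outside the rule lay 239 cells (CO hydrogel), 543 cells (hydrogel) and 193 cells (untreated) with 1 Arg1 UMI, and 75 cells (CO hydrogel), 137 cells (hydrogel) and 93 cells (untreated) with 2 gate genes in place of 3. Members with at least 10 Arg1 UMIs numbered 17 in the CO hydrogel library (7.87%), 401 in the hydrogel library (29.6%) and 284 in the untreated library (44.0%). Median Arg1 counts per member were 3 UMIs (CO hydrogel), 6 UMIs (hydrogel) and 8 UMIs (untreated). The CO hydrogel members were thus both the fewest and, per cell, the lowest in Arg1.

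Arg1 RNA was not limited to macrophages in any of the 3 wounds. Cells of the fibroblast marker class held 70.3% of all Arg1 UMIs of the CO hydrogel library, 14.9% of the hydrogel library and 26.1% of the untreated library, where the macrophage class held 15.4% (CO hydrogel), 51.5% (hydrogel) and 39.1% (untreated). Summed Arg1 levels in the fibroblast class were 106 CPM in the CO hydrogel library, 127 CPM in the hydrogel library and 259 CPM in the untreated library, against 71.3 CPM (CO hydrogel), 383 CPM (hydrogel) and 729 CPM (untreated) in the macrophage class. As a measure of free RNA, with every cell thinned to 1000 UMIs, an Arg1 UMI was seen in 1 of 352 T or NK class cells of the CO hydrogel library (0.284%), 19 of 553 of the hydrogel library (3.44%) and 1 of 96 of the untreated library (1.04%). In the macrophage class these shares were 6.11% (CO hydrogel), 21.7% (hydrogel) and 30.5% (untreated), above the T or NK class in each library. Unthinned median depths were 2500 UMIs (CO hydrogel), 4097 UMIs (hydrogel) and 4571 UMIs (untreated) in the T or NK class and 5297 UMIs (CO hydrogel), 8289 UMIs (hydrogel) and 8047 UMIs (untreated) in the macrophage class. The Pdgfra exclusion removed 41.2% of gated cells with 2 Arg1 UMIs in the CO hydrogel library, 10.2% in the hydrogel library and 13.1% in the untreated library. The Pdgfra exclusion thus left out a larger part of such cells in the CO hydrogel library than in the others. So did Cd163 (18.8% in CO hydrogel, 4.60% in hydrogel and 11.6% in untreated) and Cdh5 (9.48%, 4.82% and 3.28%). Fcnb left out the smallest part there (10.7% in CO hydrogel, 23.1% in hydrogel and 23.4% in untreated). After all 4 exclusions, 37.2% of such cells were kept in the CO hydrogel library, 61.7% in hydrogel and 53.0% in untreated.

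The 4 other marker genes were higher in core Arg1 macrophages than in the other core macrophages of every library. Csf3 reached 8.82 CPM in Arg1 macrophages and 3.21 CPM in other macrophages of the CO hydrogel library, 77.0 (Arg1) and 10.7 CPM (other) in the hydrogel library, and 490 (Arg1) and 75.0 CPM (other) in the untreated library, log2 ratios of 1.46 (CO hydrogel, interval 0.42 to 2.43, on 14 UMIs), 2.85 (hydrogel) and 2.71 (untreated). Thbs1 stood at 51.6 (Arg1) and 17.7 CPM (other) in the CO hydrogel library, 130 (Arg1) and 29.8 CPM (other) in the hydrogel library, and 1137 (Arg1) and 279 CPM (other) in the untreated library, log2 ratios of 1.54 (CO hydrogel), 2.13 (hydrogel) and 2.03 (untreated). Ereg stood at 142 (Arg1) and 59.9 CPM (other) in the CO hydrogel library, 254 (Arg1) and 90.1 CPM (other) in the hydrogel library, and 826 (Arg1) and 236 CPM (other) in the untreated library, log2 ratios of 1.24 (CO hydrogel), 1.5 (hydrogel) and 1.81 (untreated). These 3 genes were lowest in the CO hydrogel library and highest in the untreated library in both kinds of macrophage.

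Spp1 behaved otherwise. Its level in core Arg1 macrophages was 6579 CPM in the CO hydrogel library, 5581 CPM in the hydrogel library and 5582 CPM in the untreated library, while other core macrophages had 1471 CPM (CO hydrogel), 2576 CPM (hydrogel) and 3152 CPM (untreated), so its log2 ratio ran from 2.16 (CO hydrogel) through 1.12 (hydrogel) to 0.82 (untreated). The direction was the same at equal depth. In cells thinned to 2000 UMIs, a Spp1 UMI was seen in 49.4%, 64.5% and 58.2% of core Arg1 macrophages of the CO hydrogel, hydrogel and untreated libraries, against 23.0% (CO hydrogel), 49.9% (hydrogel) and 33.6% (untreated) of other core macrophages. For Thbs1 the thinned shares were 7.93% (CO hydrogel), 14.1% (hydrogel) and 63.3% (untreated) in Arg1 macrophages against 3.36% (CO hydrogel), 5.02% (hydrogel) and 22.9% (untreated) in the others, and for Csf3 they were 1.83% (CO hydrogel), 7.60% (hydrogel) and 25.3% (untreated) against 0.491% (CO hydrogel), 1.77% (hydrogel) and 4.85% (untreated).

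Other wound macrophages shared parts of this set. Gated cells with a UMI of both Trem2 and Gpnmb, genes of lipid-laden macrophages, which are a subset of the other macrophages, had Spp1 at 2909 CPM in the CO hydrogel library, 3036 CPM in the hydrogel library and 5266 CPM in the untreated library, but Csf3 at 1.84 CPM (CO hydrogel), 7.80 CPM (hydrogel) and 27.5 CPM (untreated). Cd163 macrophages had Spp1 at 203 CPM (CO hydrogel), 518 CPM (hydrogel) and 179 CPM (untreated). Fcnb monocytes had Thbs1 at 282 CPM (CO hydrogel), 186 CPM (hydrogel) and 975 CPM (untreated) and Ereg at 288 CPM (CO hydrogel), 241 CPM (hydrogel) and 684 CPM (untreated), with Spp1 at 294 CPM (CO hydrogel), 701 CPM (hydrogel) and 532 CPM (untreated). Spp1 was thus also found in the Trem2 Gpnmb cells, and Ereg and Thbs1 in the Fcnb monocytes. Thbs1 was higher in Fcnb monocytes than in core Arg1 macrophages of the CO hydrogel (51.6 CPM) and hydrogel (130 CPM) libraries. Ereg was higher in them in the CO hydrogel library (142 CPM in core Arg1 macrophages). In the remaining libraries both genes were lower in Fcnb monocytes. Unlike the Arg1 macrophages above, the Trem2 Gpnmb, Cd163 and Fcnb groups were not limited to core cells. Summed neutrophil markers in Fcnb monocytes were 2685 CPM (CO hydrogel), 2461 CPM (hydrogel) and 4744 CPM (untreated). In core Arg1 macrophages they were 198 CPM (CO hydrogel), 557 CPM (hydrogel) and 1386 CPM (untreated). The part of RNA from other cell classes in these levels was not tested.

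**Figure D2:**
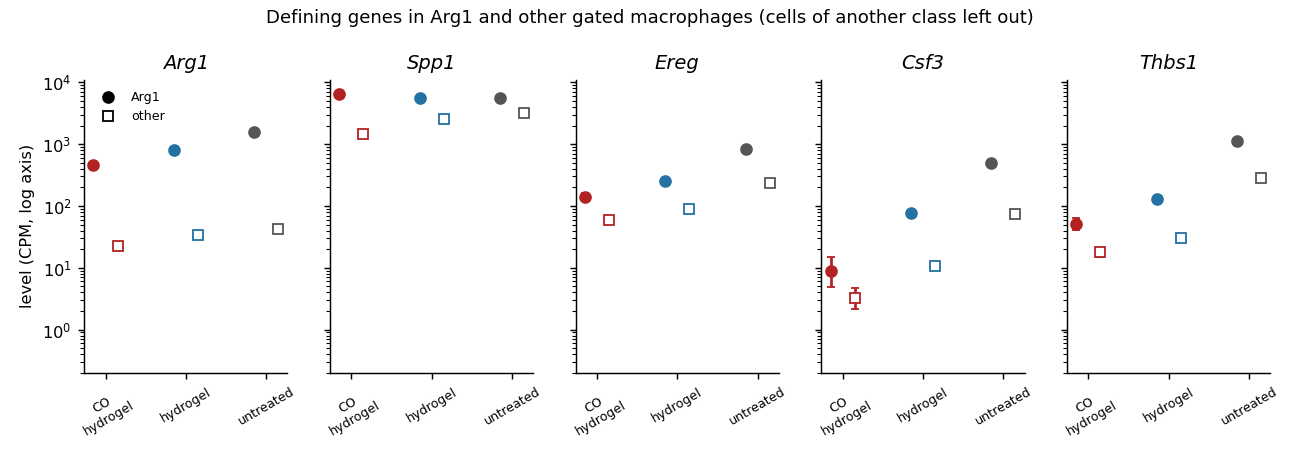
Levels (CPM, log axis) of Arg1, Spp1, Ereg, Csf3 and Thbs1 in core Arg1 macrophages (filled circles) and other core macrophages (open squares) of each library, with exact 95% intervals for counting error. All 5 genes are higher in Arg1 than in other macrophages of each library, Arg1 by the rule itself, and Csf3 and Thbs1 are highest in the untreated library, at 490 and 1137 CPM in Arg1 macrophages.

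Over all members, 48 of 9873 measured genes were at least 2-fold higher in Arg1 than in other macrophages in all 3 libraries (0.486%), and 160 were at least 2-fold lower (1.62%). Taken 1 library at a time, 4.54% of genes were 2-fold higher and 6.03% lower in the CO hydrogel library, 0.982% higher and 5.19% lower in the hydrogel library, and 2.24% higher and 7.13% lower in the untreated library. By the naming rule, which takes the genes with the largest ratio that held in all 3 libraries, the 12 highest were Gjb6, Csf3, Prss22, Ly6d, Trex2, Cysrt1, Fam83a, Krt16, Sprr1b, Il17b, Cyp4f39 and Serpinb2. Several of these are epidermal genes: Krt16 is a keratin of wounded epidermis and Sprr1b a cornified envelope protein. Krt16 had 57.9 CPM in Arg1 macrophages and 15.5 CPM in other macrophages of the CO hydrogel library, 6.26 (Arg1) and 1.88 CPM (other) in the hydrogel library, and 31.1 (Arg1) and 0.628 CPM (other) in the untreated library. Of these 12, 1 (Csf3) was still 2-fold higher in all libraries in the core. The low keratinocyte marker sums of the core given above follow from its definition, which left out cells led by those markers. The 12 lowest were Mt3, Lat, Cd207, Atp6v0d2, P2ry10, Ccl22, Myo1d, Slc9b2, Krt79, Ctsk, Olfml2a and Arsb, and 10 of them, all but Krt79 and Olfml2a, were also 2-fold lower in the core.

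In the core, 17 of 9058 measured genes were at least 2-fold higher in all 3 libraries (0.188%) and 93 were at least 2-fold lower (1.03%). The higher ones with a symbol, beside the markers Arg1, Csf3, Ereg and Thbs1, were Slpi, Sema3c, Cenpn, Sstr4, Slc7a2, Ptges, Met, Enpp3, Wfdc21, Nos2 and Cuedc1. Wfdc21 rested on 10 UMIs in Arg1 macrophages of the CO hydrogel library. Its log2 ratio there had an interval from -0.08 to 2.25, and the sign turned with per-cell means (-0.042) and without shared barcodes (-0.99). Slpi, a secreted inhibitor of neutrophil elastase, had 1096 CPM in Arg1 macrophages and 336 CPM in other macrophages of the CO hydrogel library, 3254 (Arg1) and 892 CPM (other) in the hydrogel library, and 12114 (Arg1) and 2802 CPM (other) in the untreated library. The secreted guidance protein Sema3c had 102 (Arg1) and 32.1 CPM (other) in the CO hydrogel library, 96.7 (Arg1) and 31.2 CPM (other) in the hydrogel library, and 155 (Arg1) and 51.3 CPM (other) in the untreated library. Its log2 ratios of 1.67 (CO hydrogel), 1.63 (hydrogel) and 1.59 (untreated) lay close together across libraries. Cenpn, a centromere protein, had log2 ratios of 1.46 (CO hydrogel), 1.52 (hydrogel) and 1.45 (untreated), and the nucleotide-cleaving surface enzyme Enpp3 had 1.55 (CO hydrogel), 1.29 (hydrogel) and 1.19 (untreated).

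Genes of arginine and prostaglandin handling were among them. Slc7a2, a transporter of cationic amino acids including arginine, had 12.0 CPM in Arg1 macrophages and 2.29 CPM in other macrophages of the CO hydrogel library, 51.8 (Arg1) and 21.1 CPM (other) in the hydrogel library, and 55.6 (Arg1) and 18.0 CPM (other) in the untreated library. Nos2 had 191 (Arg1) and 69.3 CPM (other) in the CO hydrogel library, 874 (Arg1) and 425 CPM (other) in the hydrogel library, and 1643 (Arg1) and 566 CPM (other) in the untreated library, log2 ratios of 1.47 (CO hydrogel), 1.04 (hydrogel) and 1.54 (untreated). Levels are sums over cells: a Nos2 UMI was found in 39.2% of core Arg1 macrophages of the CO hydrogel library, 77.7% of the hydrogel library and 87.5% of the untreated library, at full depth. Prostaglandin E synthase (Ptges) had 5.67 (Arg1) and 2.40 CPM (other) in the CO hydrogel library, where the interval of its log2 ratio of 1.24 ran from -0.07 to 2.42, 86.3 (Arg1) and 15.3 CPM (other) in the hydrogel library, and 79.9 (Arg1) and 10.0 CPM (other) in the untreated library. Ptgs2 (cyclooxygenase 2, the step before it) had log2 ratios of 0.94 (CO hydrogel), 1.09 (hydrogel) and 1.24 (untreated). The receptor of hepatocyte growth factor, Met, had log2 ratios of 1.21 (CO hydrogel), 1.48 (hydrogel) and 1.72 (untreated). Of the 16 measured genes of arginine and polyamine metabolism, Slc7a2 and Nos2 were the 2 called, that is, at least 2-fold different in 1 direction in all 3 libraries, and the list's median log2 ratio stayed near 0, at -0.06 in the CO hydrogel library, 0.12 in the hydrogel library and -0.03 in the untreated library.

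Nearly every heme, iron and antioxidant gene was higher in Arg1 macrophages. Of 17 measured, 16 were higher in all 3 libraries, where 12.3% of all measured genes were, with median log2 ratios of 0.82 (CO hydrogel), 0.58 (hydrogel) and 0.58 (untreated) beside all-gene medians of -0.06 (CO hydrogel), -0.04 (hydrogel) and -0.25 (untreated). Heme oxygenase 1 (Hmox1), which degrades heme and releases CO in cells, had 3775 CPM in Arg1 macrophages and 1321 CPM in other macrophages of the CO hydrogel library, 2748 (Arg1) and 1763 CPM (other) in the hydrogel library, and 3516 (Arg1) and 1542 CPM (other) in the untreated library. Ferritin heavy chain (Fth1), which stores iron, had log2 ratios of 1.27 (CO hydrogel), 0.71 (hydrogel) and 1.30 (untreated), and the quinone reductase Nqo1 0.62 (CO hydrogel), 1.25 (hydrogel) and 0.58 (untreated). The member that differed was biliverdin reductase A (Blvra), at 0.15 (CO hydrogel), -0.19 (hydrogel) and -0.63 (untreated). Ratios in this list were mostly under 2-fold, and no member was called in all 3 libraries.

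Hypoxia and glycolysis genes leaned the same way, with 19 of 26 measured higher in all 3 libraries, 2 lower in all 3, and medians of 0.26 (CO hydrogel), 0.50 (hydrogel) and 0.39 (untreated). The glucose transporter Slc2a1 had 132 CPM in Arg1 macrophages and 81.3 CPM in other macrophages of the CO hydrogel library, 304 (Arg1) and 174 CPM (other) in the hydrogel library, and 335 (Arg1) and 162 CPM (other) in the untreated library. Vegfa, the main growth factor of blood vessels, had log2 ratios of 0.97 (CO hydrogel), 0.39 (hydrogel) and 0.62 (untreated), and the mitophagy gene Bnip3 0.59 (CO hydrogel), 1.12 (hydrogel) and 0.96 (untreated). Hif1a itself, the oxygen-regulated transcription factor, had 0.15 (CO hydrogel), 0.67 (hydrogel) and 0.93 (untreated), the CO hydrogel value having an interval from -0.05 to 0.35. Over all members 15 of 26 were higher in all 3 libraries and 1 lower. Genes of the Trem2 lipid-handling program were higher in all 3 libraries for 11 of 22 measured and lower in all 3 for 1, with medians of 0.48 (CO hydrogel), 0.29 (hydrogel) and 0.15 (untreated). Over all members 9 of 22 were higher and 7 lower, with medians of 0.04 (CO hydrogel), 0.31 (hydrogel) and 0.24 (untreated). Their lean in the core thus depended on which members were used. Among them the lysosomal protease Ctsl had 4423 CPM in Arg1 macrophages and 1770 CPM in other macrophages of the CO hydrogel library, 3363 (Arg1) and 1831 CPM (other) in the hydrogel library, and 9040 (Arg1) and 3100 CPM (other) in the untreated library.

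Of 20 measured inflammatory cytokines, chemokines and related genes, 10 were higher in all 3 libraries and 1 lower in all 3, with medians of 0.23 (CO hydrogel), 0.67 (hydrogel) and 0.92 (untreated). Over all members these were 5 higher and 2 lower of 22, and the CO hydrogel median was -0.09, beside 0.57 (hydrogel) and 0.60 (untreated). The neutrophil chemokine Cxcl3 had 1419 CPM in Arg1 macrophages and 790 CPM in other macrophages of the CO hydrogel library, 4647 (Arg1) and 1443 CPM (other) in the hydrogel library, and 24358 (Arg1) and 5858 CPM (other) in the untreated library. Ccl3, which attracts monocytes and lymphocytes, did not share one direction: its log2 ratio was -0.34 in the CO hydrogel library, 0.78 in the hydrogel library and 1.46 in the untreated library. Il6 gave -0.72 (CO hydrogel), 0.75 (hydrogel) and 0.96 (untreated), and the anti-inflammatory cytokine Il10 -0.52 (CO hydrogel), 1.43 (hydrogel) and 1.43 (untreated). Among EGF receptor ligands, amphiregulin (Areg) had log2 ratios of 0.96 (CO hydrogel), 0.99 (hydrogel) and 1.11 (untreated) and Nrg1 0.62 (CO hydrogel), 0.97 (hydrogel) and 0.77 (untreated). Hbegf ran the other way, at -0.63 (CO hydrogel), -1.01 (hydrogel) and -1.02 (untreated), though over all members it stood at 1.42 (CO hydrogel), 0.50 (hydrogel) and 0.46 (untreated).

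Genes of antigen presentation, resident macrophages and osteoclasts were among those lower in Arg1 macrophages. The 9 measured MHC class II genes had median log2 ratios of -1.03 in the CO hydrogel library, -0.74 in the hydrogel library and -1.43 in the untreated library, and 8 of the 9 were lower in all 3 libraries, against 33.7% of all genes. RT1-Da had 2184 CPM in Arg1 macrophages and 4444 CPM in other macrophages of the CO hydrogel library, 1532 (Arg1) and 2680 CPM (other) in the hydrogel library, and 1554 (Arg1) and 4418 CPM (other) in the untreated library. Of 13 resident macrophage genes 8 were lower in all 3 libraries and 3 were called lower: the hyaluronan receptor Lyve1 (log2 ratios -1.89 in CO hydrogel, -1.81 in hydrogel and -2.61 in untreated), the selenium carrier Selenop (-1.63 in CO hydrogel, -1.30 in hydrogel and -1.32 in untreated) and the lectin Clec10a (-1.96 in CO hydrogel, -2.25 in hydrogel and -1.18 in untreated). Clec10a and Ccl22 were also the 2 called lower among 17 measured genes of alternative activation, a list that holds Arg1's usual company in mice and whose medians here were -0.47 (CO hydrogel), -0.16 (hydrogel) and -0.32 (untreated). Ccl22, a chemokine of dendritic cells and some macrophages, had 0 UMIs in core Arg1 macrophages of the CO hydrogel library beside 41.8 CPM in other macrophages. It had 3.25 (Arg1) and 15.2 CPM (other) in the hydrogel library, and 1.69 (Arg1) and 170 CPM (other) in the untreated library.

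All 4 measured osteoclast genes were called lower in summed level, with list medians of -1.49 (CO hydrogel), -2.55 (hydrogel) and -2.84 (untreated). The share of cells with a UMI did not always follow. At full depth Acp5 was found in 64.3% (Arg1) and 46.3% (other) in the CO hydrogel library, 65.3% (Arg1) and 56.8% (other) in the hydrogel library, and 43.6% (Arg1) and 40.2% (other) in the untreated library. Ctsk was likewise found in more Arg1 than other macrophages of each library, Mmp9 in all but the CO hydrogel library, and Atp6v0d2 in fewer in each. Arg1 macrophages were also read more deeply. Cathepsin K (Ctsk) had 1670 CPM in Arg1 macrophages and 4855 CPM in other macrophages of the CO hydrogel library, 475 (Arg1) and 2712 CPM (other) in the hydrogel library, and 29.6 (Arg1) and 455 CPM (other) in the untreated library. Langerin (Cd207), the Langerhans cell lectin, had 4.41 (Arg1) and 54.2 CPM (other) in the CO hydrogel library, 0.424 (Arg1) and 2.79 CPM (other) in the hydrogel library, and 0.169 (Arg1) and 218 CPM (other) in the untreated library. The comparison cells thus held transcripts of osteoclasts and of Langerhans cells, and the part of such cells in the ratios was not tested. Genes that tissue dissociation induces were also lower: of 17 measured, 13 were lower in all 3 libraries, with Fos at 392 (Arg1) and 1272 CPM (other) in the CO hydrogel library, 835 (Arg1) and 1709 CPM (other) in the hydrogel library, and 578 (Arg1) and 1917 CPM (other) in the untreated library. Whether these early response genes differed before dissociation was not tested.

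**Figure D3:**
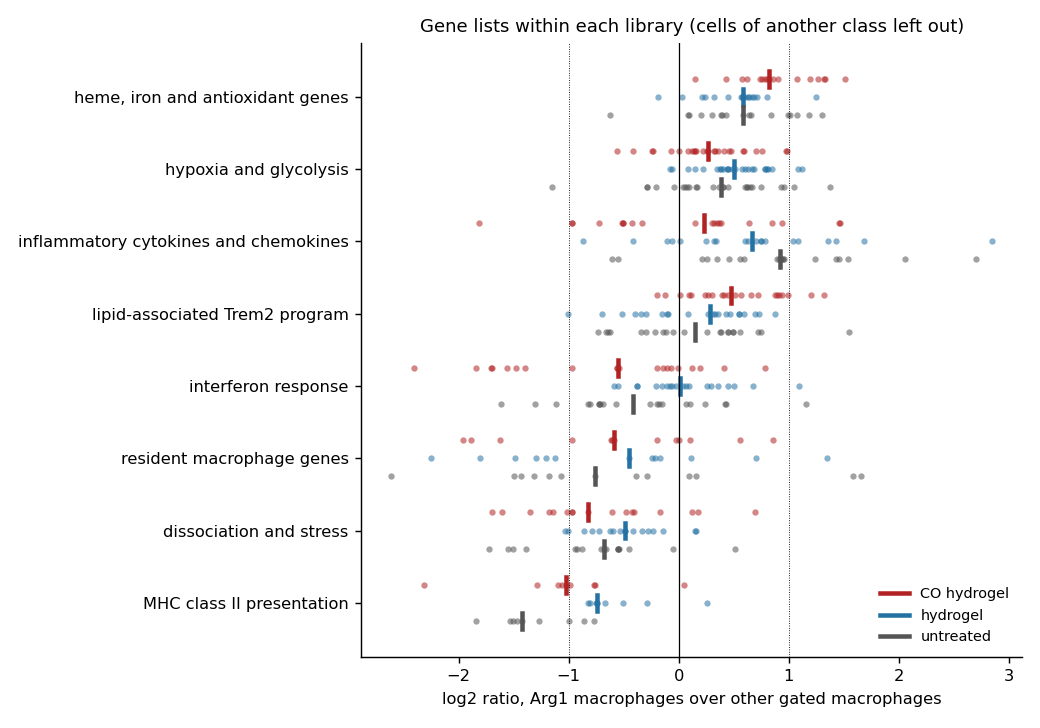
Log2 ratios of core Arg1 macrophages over other core macrophages for 8 gene lists, 1 point per measured gene and library, with a bar at each list's median and dotted lines at 2-fold. The heme, iron and antioxidant medians lie above 0 in all 3 libraries (0.82, 0.58 and 0.58 in the CO hydrogel, hydrogel and untreated libraries), and the MHC class II medians lie below 0 in all 3.

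Among the members themselves, levels of Ereg and Csf3 mostly rose with Arg1. As Arg1 is a gene of the rule and the markers were picked from these data, this describes the cells and supports nothing independently. In the core of the hydrogel library, Csf3 was 27.4 CPM in cells with 2 Arg1 UMIs, 25.8 CPM with 3, 67.1 CPM with 4 to 9 and 137 CPM with 10 or more, and Ereg was 107, 161, 187 and 462 CPM in the same bins. In the untreated library Csf3 was 148, 226, 311 and 691 CPM and Ereg 405, 583, 839 and 945 CPM. In the CO hydrogel library Ereg was 47.3, 57.1, 202 and 506 CPM, the last in 9 cells, and Csf3 1.82, 13.4 and 14.2 CPM in the first 3 bins, with 0 UMIs in the last. Spp1 followed Arg1 less: it ran from 3216 to 7231 CPM over the bins of the hydrogel library, but was highest, at 7814 CPM, in untreated cells with 2 Arg1 UMIs. Cells of the higher bins also had more UMIs, with medians at 10 or more and at 2 Arg1 UMIs of 10921 and 7961 (CO hydrogel), 10209 and 9104 (hydrogel) and 11180.5 and 6924.5 (untreated). The part of depth in these gradients was not tested.

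**Figure D4:**
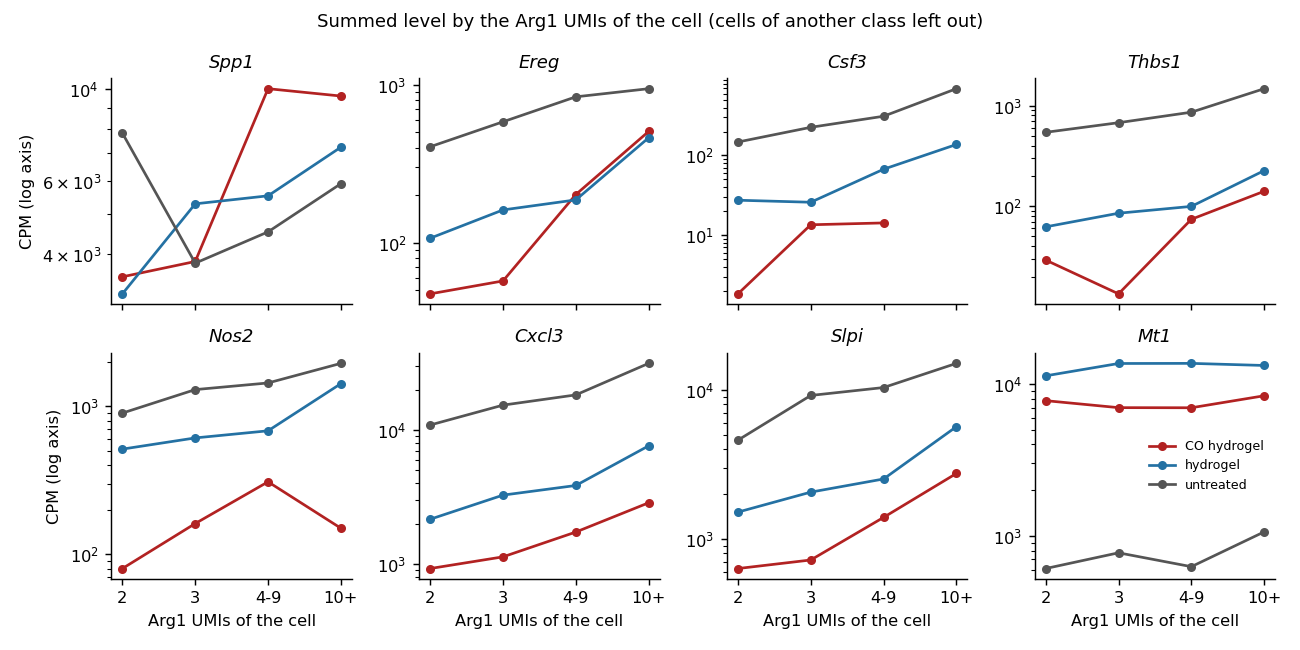
Levels (CPM, log axis) of Spp1, Ereg, Csf3, Thbs1, Nos2, Cxcl3, Slpi and Mt1 in core Arg1 macrophages binned by their own number of Arg1 UMIs, 1 line per library. Csf3 was 27.4 CPM in the lowest and 137 CPM in the highest bin of the hydrogel library, and 148 and 691 CPM in those bins of the untreated library, whose line lies above the others for Csf3, Thbs1 and Ereg. The CO hydrogel point of Csf3 at 10 or more UMIs, at 0, is not drawn.

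At a fixed 2000 UMIs per cell Ereg, Thbs1 and Csf3 also met in the same cells, while Spp1 did not go with them throughout. In the CO hydrogel library Csf3 was seen in only 3 of 164 core members, too few to read its splits. They were 3 of 13 Thbs1-positive and 0 of 151 Thbs1-negative cells. Thbs1 was seen in 21.2% of Ereg-positive and 4.58% of Ereg-negative core members of the CO hydrogel library, 27.5% (positive) and 9.61% (negative) in the hydrogel library, and 75.6% (positive) and 52.2% (negative) in the untreated library. Csf3 was seen in 20.6% of Thbs1-positive and 5.47% of Thbs1-negative cells of the hydrogel library, and in 36.2% (positive) and 6.67% (negative) in the untreated library. Nos2 was seen in 86.6% of Csf3-positive and 55.3% of Csf3-negative cells of the hydrogel library, and in 97.2% (positive) and 69.1% (negative) in the untreated library. Gpnmb split the members the other way, with Ereg in 14.8% of Gpnmb-positive and 38.9% of Gpnmb-negative cells (CO hydrogel), 22.9% (positive) and 36.7% (negative) (hydrogel), and 36.9% (positive) and 61.8% (negative) (untreated). Spp1 went with Gpnmb instead, at 58.6% of positive and 16.7% of negative cells (CO hydrogel), 66.7% (positive) and 52.6% (negative) (hydrogel), and 63.7% (positive) and 50.6% (negative) (untreated). Csf3 was seen in 7.31% of Gpnmb-positive and 9.18% of Gpnmb-negative cells in the hydrogel library and 24.8% (positive) and 26.1% (negative) in the untreated library. By Spp1, Ereg was seen in 13.6% of Spp1-positive and 26.5% of Spp1-negative cells (CO hydrogel), 23.8% (positive) and 27.4% (negative) (hydrogel), and 45.6% (positive) and 49.8% (negative) (untreated). Thbs1 was seen in 4.94% (positive) and 10.8% (negative) (CO hydrogel), 12.3% (positive) and 17.4% (negative) (hydrogel), and 65.5% (positive) and 60.3% (negative) (untreated). Csf3 was seen in 6.92% (positive) and 8.83% (negative) in the hydrogel library and 26.1% (positive) and 24.3% (negative) in the untreated library.

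Between wounds, the counts of genes depended on which members were used. Over all members, 700 of 7885 measured genes were at least 2-fold higher in the CO hydrogel than in the hydrogel library (8.88%) and 359 lower (4.55%). In the core these were 127 of 7226 (1.76%) and 236 (3.27%). None of the 8 highest over all members, among them Sox9, Fermt1, Mmp13, Moxd1, Lmo1, Itgb4 and Gap43, was called 2-fold higher in the core. All 8 lowest, Cxcl11, Igtp, Tmem269, Cmpk2, Gbp4, Apol3, Nos2 and MGC105567, were called 2-fold lower there. A call needed at least 100 UMIs over both libraries, so a gene can also lack one for low counts. Of 6 keratinocyte markers, 5 were measured for this pair over all members and 1 in the core. Itgb4 encodes an integrin of epidermal cells, and several of the lowest genes are induced by interferon. The 3 pairs share libraries, so they are not independent of each other. Areg depended on the members in the same way: its CO hydrogel over hydrogel log2 ratio was 0.62 over all members and -0.71 in the core.

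Interferon-induced genes were highest in the hydrogel wound in the core. The chemokine Cxcl11 had 19.5 CPM in the CO hydrogel library, 416 CPM in the hydrogel library and 38.5 CPM in the untreated library, and the guanylate-binding protein Gbp2 had 74.9 CPM (CO hydrogel), 308 CPM (hydrogel) and 34.3 CPM (untreated). Irf1, a transcription factor of the interferon response, had 93.2 CPM (CO hydrogel), 335 CPM (hydrogel) and 80.7 CPM (untreated). Of 20 measured interferon genes, 14 were at least 2-fold lower in the CO hydrogel than in the hydrogel library (median log2 ratio -1.31) and 11 were at least 2-fold higher in the hydrogel than in the untreated library (median 1.09). Of the 15 measured in the pair of CO hydrogel and untreated, 2 were higher and 2 lower (median 0.21). Over all members 0 of 16 were higher and 3 lower (median -0.01). Other core macrophages had medians of -0.44 for CO hydrogel over hydrogel, 0.67 for hydrogel over untreated and 0.23 for CO hydrogel over untreated. Of all measured genes in core Arg1 macrophages, 3.27% were at least 2-fold lower for CO hydrogel over hydrogel. For hydrogel over untreated 6.13% were at least 2-fold higher, and for CO hydrogel over untreated 5.17% were higher and 4.05% lower.

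Inflammatory mediators were lowest in the CO hydrogel wound and highest in the untreated wound. Of the measured list, 13 of 21 were at least 2-fold lower in the CO hydrogel than in the hydrogel library (median log2 ratio -1.18), 20 of 22 lower in the CO hydrogel than in the untreated library (median -2.24), and 12 of 22 lower in the hydrogel than in the untreated library (median -1.15), with none higher in any pair. Over all members, 16 of 23 were lower and 2 higher for CO hydrogel over hydrogel, 19 lower and 2 higher for CO hydrogel over untreated, and 11 lower and 1 higher for hydrogel over untreated. Cxcl3 had 1419 CPM in the CO hydrogel library, 4647 CPM in the hydrogel library and 24358 CPM in the untreated library. Ccl3 had 479 CPM (CO hydrogel), 1390 CPM (hydrogel) and 6165 CPM (untreated), and the cytokine Il1a 31.5 CPM (CO hydrogel), 88.3 CPM (hydrogel) and 147 CPM (untreated). Other core macrophages shared the direction with smaller medians, -0.60 for CO hydrogel over hydrogel, -1.46 for CO hydrogel over untreated and -1.04 for hydrogel over untreated. Core medians over all measured genes were 0.05 for CO hydrogel over hydrogel, 0.21 for CO hydrogel over untreated and 0.22 for hydrogel over untreated. Of all measured core genes, 3.27% were at least 2-fold lower for CO hydrogel over hydrogel. These shares were 4.05% for CO hydrogel over untreated and 2% for hydrogel over untreated.

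The markers followed the same order. Csf3 had log2 ratios of -3.13 for CO hydrogel over hydrogel, -5.80 for CO hydrogel over untreated and -2.67 for hydrogel over untreated. Thbs1 gave -1.33 for CO hydrogel over hydrogel, -4.46 for CO hydrogel over untreated and -3.13 for hydrogel over untreated, and Ereg -0.84 for CO hydrogel over hydrogel, -2.54 for CO hydrogel over untreated and -1.70 for hydrogel over untreated. At matched Arg1 counts of 4 to 9 UMIs, Thbs1 was still 74.1 CPM in the CO hydrogel library, 99.5 CPM in the hydrogel library and 859 CPM in the untreated library, and Csf3 14.2 CPM (CO hydrogel), 67.1 CPM (hydrogel) and 311 CPM (untreated). The same order thus held for Thbs1 and Csf3 in cells of equal Arg1 count, whereas Ereg there was 202 CPM (CO hydrogel), 187 CPM (hydrogel) and 839 CPM (untreated). At 2 Arg1 UMIs Ereg was 47.3 CPM (CO hydrogel), 107 CPM (hydrogel) and 405 CPM (untreated), and at 3 UMIs 57.1 CPM (CO hydrogel), 161 CPM (hydrogel) and 583 CPM (untreated). Spp1 was nearly level over the whole core, with log2 ratios of 0.24 for CO hydrogel over hydrogel, 0.24 for CO hydrogel over untreated and 0.00 for hydrogel over untreated. At matched Arg1 counts it was not level, and the order changed with the count. At 4 to 9 Arg1 UMIs Spp1 was 9990 CPM (CO hydrogel), 5528 CPM (hydrogel) and 4529 CPM (untreated). At 2 Arg1 UMIs it was 3533 CPM (CO hydrogel), 3216 CPM (hydrogel) and 7814 CPM (untreated).

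Neutrophil markers moved in the same direction as these genes. Their summed level in the core was 198 CPM in the CO hydrogel library, 557 CPM in the hydrogel library and 1386 CPM in the untreated library, and in other core macrophages 337 CPM (CO hydrogel), 615 CPM (hydrogel) and 1191 CPM (untreated). No neutrophil marker was at 0 over all members of any library. Cxcl3 reached 34813 CPM in the neutrophil class of the untreated library, above the 24358 CPM of core Arg1 macrophages, and Nos2 3916 CPM. For the pair of CO hydrogel and untreated, the neutrophil class reached 43808 CPM of Slpi and 879 CPM of Thbs1. Untreated core Arg1 macrophages had 12114 CPM of Slpi and 1137 CPM of Thbs1. The part of neutrophil RNA in the Cxcl3, Ccl3, Nos2, Slpi and Thbs1 differences, between wounds or within libraries, was not tested.

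Against the untreated wound, the CO hydrogel library had 267 of 5164 core genes at least 2-fold higher (5.17%) and 209 lower (4.05%), while over all members it had 650 of 6331 higher (10.3%) and 275 lower (4.34%). The 8 lowest named genes were Cxcl6, Csf3, Thbs1, Cxcl3, Ccl3, Slpi, Nos2 and Fmo5, and all 8 were 2-fold lower in the core too. Of the 8 highest, Mt3, Ctsk, C1qtnf12, Wfdc18, Stfa3, Efna1, Sox9 and Myo1d, only Ctsk and Mt3 were called 2-fold higher in the core. A call needed at least 100 UMIs over both libraries. Myo1d fell short of this in the core, at 38.4 CPM on 61 UMIs (CO hydrogel) and 0.675 CPM on 4 UMIs (untreated). The transferrin receptor Tfrc, which imports iron, had 366.5 CPM in the CO hydrogel and 30.2 CPM in the untreated core. Lipoprotein lipase (Lpl) had 223 CPM in the CO hydrogel core, 18.7 CPM in the hydrogel core and 30.7 CPM in the untreated core.

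Hydrogel over untreated gave 467 of 7617 core genes at least 2-fold higher (6.13%) and 152 lower (2%), against 417 of 8123 higher (5.13%) and 250 lower (3.08%) over all members. Its 8 highest named genes were Tmem269, Mt1m, MGC108823, Mt1, Slc1a3, Cxcl11, Ctsk and Mt2A, and its 8 lowest were Cxcl6, Serpinb2, Fmo5, Ccl24, Thbs1, Pmp22, Csf3 and Ecm1. All 16 were also past 2-fold in the core, in the same direction. The metallothionein Mt1, a small binder of zinc and copper, had 7343 CPM in the CO hydrogel core, 13068 CPM in the hydrogel core and 872 CPM in the untreated core. It was higher under both gels in other core macrophages as well, at 2947 CPM in the CO hydrogel library, 8741 CPM in the hydrogel library and 431 CPM in the untreated library. Serpinb2, an inhibitor of plasminogen activators, was 2.52 CPM (CO hydrogel), 2.54 CPM (hydrogel) and 274 CPM (untreated) in the core.

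Hmox1, the heme oxygenase that makes CO, differed by less than 2-fold between wounds in core Arg1 macrophages, with log2 ratios of 0.46 for CO hydrogel over hydrogel (interval 0.42 to 0.50), 0.10 for CO hydrogel over untreated (0.06 to 0.14) and -0.36 for hydrogel over untreated (-0.38 to -0.33). Arginine genes differed in part: Ass1, which remakes arginine from citrulline, had 10.1 CPM in the CO hydrogel core, 77.0 CPM in the hydrogel core and 25.0 CPM in the untreated core, and Slc7a2 had 12.0 CPM (CO hydrogel), 51.8 CPM (hydrogel) and 55.6 CPM (untreated). Hypoxia and glycolysis genes had median log2 ratios of -0.37 for CO hydrogel over hydrogel, -0.47 for CO hydrogel over untreated and -0.04 for hydrogel over untreated. MHC class II genes had medians of 0.26 for CO hydrogel over hydrogel, 0.28 for CO hydrogel over untreated and -0.20 for hydrogel over untreated. Over all members their medians were -0.19 for CO hydrogel over hydrogel, -0.29 for CO hydrogel over untreated and -0.06 for hydrogel over untreated.

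Osteoclast genes were highest in the CO hydrogel core, with Acp5, an osteoclast acid phosphatase, at 2567 CPM in the CO hydrogel library, 559 CPM in the hydrogel library and 139 CPM in the untreated library. A few cells carried them: the top 5% of core members held 93.5% of Acp5 UMIs in the CO hydrogel library, 78.0% in the hydrogel library and 48.7% in the untreated library. In core cells with 2 Arg1 UMIs, Acp5 was 6945 CPM in the CO hydrogel library and 930 CPM in the hydrogel library. With 3 Arg1 UMIs it was 249 CPM (CO hydrogel) and 684 CPM (hydrogel). With Arg1 of at least 4 UMIs the CO hydrogel over hydrogel log2 ratio of Acp5 was -0.79, so its direction was set by cells with 2 Arg1 UMIs.

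**Figure D5:**
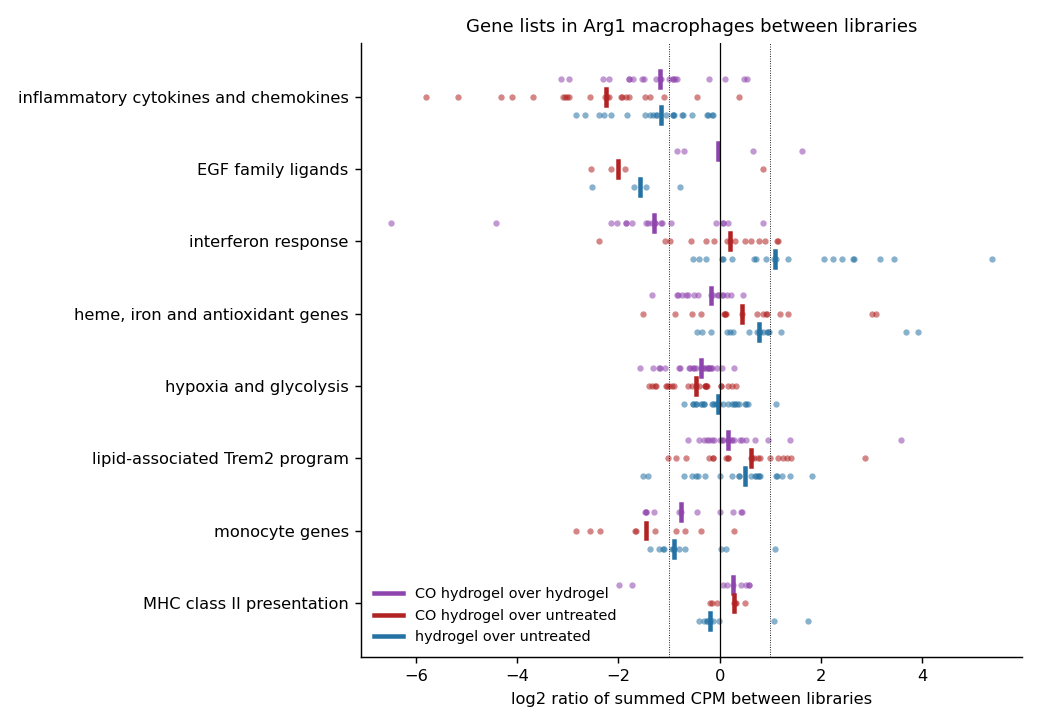
Log2 ratios between libraries in core Arg1 macrophages for 8 gene lists, 1 point per measured gene and pair of libraries, with a bar at each list's median and dotted lines at 2-fold. The inflammatory medians are below 0 in all 3 pairs (-1.18 for CO hydrogel over hydrogel, -2.24 for CO hydrogel over untreated and -1.15 for hydrogel over untreated), and the interferon median is below 0 for CO hydrogel over hydrogel (-1.31) and above 0 for hydrogel over untreated (1.09).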

How the data were processed

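Counts, deposited by the authors as UMI matrices (gene by barcode, 1 per library), were used as they stand. Cell Ranger 6.0.1 made them per the file headers. Per the submitters' processing notes, the tools were Seurat 4.2.0, DESeq 1.38.0 and another version of Cell Ranger, 7.0.0, with genome build rn6. Of 32883 features, 21393 had a usable symbol, and the others entered totals and counts of genes but are not named. A barcode was kept as a cell from 500 UMIs and 300 genes upward if mitochondrial genes gave no more than 20% of its UMIs, which left 14925 of 15376 CO hydrogel, 14346 of 15442 hydrogel and 11965 of 12883 untreated barcodes.

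The cell rule, the gene lists and the rule for named genes were chosen with earlier results of these data known, and support nothing independently. The core was defined after its values had been seen, by leaving out cells whose best-scoring marker class (a mean score of at least 0.25) was not macrophage. Counts were summed per library and scaled to counts per 1000000 UMIs (CPM). Within libraries, genes with at least 20 UMIs in each were measured, and between libraries genes with at least 100. Called means at least 2-fold. Named were the 12 genes each way with the largest smallest ratio over the 3 libraries, and the 8 highest and 8 lowest per pair among genes with a UMI in 5% of the cells and not over 5 times higher in another class, besides list members; 1 gene that met the rule is not reported here. Genes with no UMI in a group were set at 3 counts. Intervals are exact binomial or conditional binomial, at 95%. The ratio code was tested on simulated data.

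Doublets were left in, and removing the highest Scrublet scores at 0.8% per 1000 barcodes was an alternative, which took out 17 CO hydrogel, 143 hydrogel and 82 untreated members. Other alternatives were a stricter cell filter, other Arg1 minimums, other comparison cells, thinning, TMM factors, per-cell means, no count minimum and, chosen after seeing the data, the core and leaving out shared barcodes. TMM factors came from edgeR 4.0.16 under R 4.3.3. All other steps ran in Python 3.11.15, using scipy 1.17.1, numpy 2.4.6, scanpy 1.11.5, pandas 2.3.3 and matplotlib 3.10.9.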

Additional observations from a re-analysis of the deposited data

Results flagged for a closer look

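The proliferation genes went in opposite directions in 2 libraries when Arg1 macrophages were set against other macrophages over all members: their median log2 ratio was 0.82 in the CO hydrogel library and -0.64 in the untreated library. The difference was not tested, since each group is 1 library. In the core the medians were -0.05 in the CO hydrogel library, -0.38 in the hydrogel library and -2.05 in the untreated library, so the positive value was not present once cells led by markers of another class were left out. The cell cycle marker Mki67 had 44.1 CPM in core Arg1 macrophages and 45.2 CPM in other core macrophages of the CO hydrogel library, 14.5 (Arg1) and 20.1 CPM (other) in the hydrogel library, and 5.74 (Arg1) and 26.5 CPM (other) in the untreated library.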

How the results depend on the processing

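No paired analysis was possible because each group is 1 library. The share of Arg1 macrophages moved most with the Arg1 minimum and the depth. At 1 Arg1 UMI it was 3.05% (CO hydrogel), 13.2% (hydrogel) and 7.01% (untreated), at 4 UMIs 0.650%, 6.37% and 4.05%, at 1000 UMIs per cell 0.176%, 0.966% and 1.18%, at 2000 UMIs 0.460%, 3.84% and 3.63%, and in the core 1.15%, 8.93% and 4.86%. The stricter cell filter gave 10.8% (hydrogel) and 7.82% (untreated), and leaving neutrophil class cells out of the denominator 11.9% and 11.6%. Genes 2-fold higher in Arg1 macrophages in all 3 libraries numbered 17 in the core, 27 at 4 Arg1 UMIs, 11 after thinning to 2000 UMIs, 20 with per-cell means and 111 with no count minimum, and lower ones 93 in the core, 68 after thinning and 341 with no minimum. For CO hydrogel over hydrogel, the core gave 127 higher and 236 lower, 4 Arg1 UMIs 577 lower, TMM factors 572 lower, and no minimum 3513 higher and 927 lower. For CO hydrogel over untreated, the core gave 267 higher, TMM factors 371 higher and 489 lower, and no minimum 3949 and 873. For hydrogel over untreated, the core gave 152 lower and no minimum 1826 higher and 2006 lower. Single genes named over all members turned sign (log2) in the core: Gjb6 -0.36, Prss22 -1.27, Trex2 -0.94, Krt16 -0.36 and Olfml2a 0.30 in the hydrogel library, Ly6d -2.30 and Serpinb2 -0.18 in the CO hydrogel library, Ly6d -2.62 and Cysrt1 -0.24 in the untreated library, and C1qtnf12 -0.42 for CO hydrogel over untreated. With per-cell means Prss22 (-0.025), Trex2 (-0.28), Fam83a (-1.33), Krt16 (-0.10) and Sprr1b (-0.20) turned in the hydrogel library and Il17b (-0.22) in the untreated library, and after thinning Krt16 (-0.31) in the hydrogel library. At 4 Arg1 UMIs Il17b (-1.03, untreated) and Serpinb2 (-0.86, hydrogel) turned, and at 1 Arg1 UMI Slc9b2 (0.36, untreated). In the core, Cxcl13 (2.09) and Lat (0.21) of the untreated library turned at 1 Arg1 UMI, Lnx1 at per-cell means (0.074, untreated) and after thinning (1.48, CO hydrogel), and Wfdc21 of the CO hydrogel library at per-cell means (-0.042) and without shared barcodes (-0.99). At 4 Arg1 UMIs the core ratios of CO hydrogel over hydrogel turned for Myo1d (-0.84), Acp5 (-0.79), Mmp9 (-2.55), Car2 (-0.24) and Ccl24 (-0.65), and that of CO hydrogel over untreated for Mmp9 (-1.38). Causes were not tested. The number of cells limits the CO hydrogel library, with 171 core members, 9 of them with 10 or more Arg1 UMIs, and Csf3 resting on 14 UMIs there.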

Other observations

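Other lists were also compared between core Arg1 macrophages and other core macrophages. Over all measured genes, 12.3% had a ratio above 0 in each library. A further 33.7% had one below 0 in each. Transcription factors of activation and stress were lower in all 3 libraries for 13 of 25 measured and higher in all 3 for 2, with median log2 ratios of -0.45 (CO hydrogel), -0.19 (hydrogel) and -0.34 (untreated). Interferon genes were lower in all 3 libraries for 8 of 20 and higher in all 3 for 0, with medians of -0.55 (CO hydrogel), 0.01 (hydrogel) and -0.41 (untreated), a share of lower genes near that of all genes. Of 28 matrix and protease genes, 6 had a ratio above 0 in each library and 8 a ratio below 0 in each. Among them the proteoglycan Vcan had 766 CPM in Arg1 macrophages and 356 CPM in other macrophages of the CO hydrogel library, 1052 (Arg1) and 410 CPM (other) in the hydrogel library, and 2422 (Arg1) and 1282 CPM (other) in the untreated library. The growth factor Tgfb2 was lower in Arg1 macrophages, with log2 ratios of -2.44 (CO hydrogel), -1.56 (hydrogel) and -3.58 (untreated). The housekeeping list had medians of -0.09 (CO hydrogel), -0.06 (hydrogel) and -0.14 (untreated).

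Between wounds, monocyte genes had core medians of -0.76 for CO hydrogel over hydrogel, -1.47 for CO hydrogel over untreated and -0.91 for hydrogel over untreated, while genes of the Trem2 lipid-handling program had 0.16 for CO hydrogel over hydrogel, 0.62 for CO hydrogel over untreated and 0.50 for hydrogel over untreated. Over all members the CO hydrogel over hydrogel median of that program was -0.34. Gpnmb, a lysosomal glycoprotein of that program, had 2420 CPM in the CO hydrogel core, 1993 CPM in the hydrogel core and 907 CPM in the untreated core. Resident macrophage genes were at least 2-fold lower in the hydrogel than in the untreated core for 5 of 12 measured, with Clec10a at 26.6 CPM in the hydrogel core and 154 CPM in the untreated core. Of all measured core genes, 2% were lower in that pair.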
